A study of Mus musculus with 10 samples.

Results

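A set of 8 genes of fatty acid oxidation and its control was followed in the RNA of colonic intestinal epithelial cells (IECs) from wild type (WT) mice and from mice lacking the small GTPase RhoB (RhoB-/-). These genes were Cpt1a, Acadvl, Acadm, Pdk4, Fabp2, Angptl4, Ppara and Pparg. They were found by gene name among the 55487 rows of the expression table, each name matched 1 row, and all 8 had a mean above a TPM of 1, the filter that 12870 genes passed (TPM is the share of a library that the transcripts of a gene take, per unit of their length). The study had 10 libraries, 5 from WT and 5 from RhoB-/- mice, all on the C57BL/6J strain, and the comparison asked how loss of RhoB changes gene expression in these cells. No treatment was given in the labels. By the methods of the study the mice were 6 to 8 weeks old unless stated otherwise, and IECs were released from the colon with a chelating and reducing buffer. The RhoB-/- mice carried the deletion in the whole body, and the methods state that WT mice were bought, without saying which mice gave these libraries. If bought mice were used, colony and genotype cannot be told apart. The cells were a bulk preparation, in which fewer cells of a type and less RNA per cell cannot be told apart.

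Long-chain fatty acids are taken into mitochondria as carnitine esters, a step governed by Cpt1a, and are shortened there by acyl-CoA dehydrogenases such as Acadvl and Acadm. In some tissues, the colon among them, the acetyl-CoA so formed can be turned into ketone bodies. The nuclear receptors Ppara and Pparg bind fatty acids and drive many genes of these steps, Pdk4, Fabp2 and Angptl4 among their known targets. Colonocytes are known to take much of their energy from the oxidation of short-chain fatty acids made by bacteria. The enzymes of ketogenesis itself were not among the 8 genes and are described further on from a list of the pathway.

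Of the 8 genes, Angptl4 fell and Fabp2 rose in RhoB-/- IECs, and the other 6 did not pass the test. Across all tested genes 21.2% passed at an adjusted p below 0.05 (limma, Benjamini-Hochberg), 7.73% higher and 13.5% lower, so that 2 of 8 was near the share of genes at large. The median log2 fold change of the 8 genes was -0.10, beside -0.13 over all tested genes. None of the 8 had WT and RhoB-/- values that did not overlap, whereas the groups were apart for 14.5% of all tested genes (5.97% higher and 8.55% lower). By the looser rule of a p below 0.05 without adjustment and more than 1.5-fold, which 6.37% of genes met as higher and 8.33% as lower, 1 of the 8 was higher and 1 lower. Log2 fold changes were taken on log2(TPM + 1), a scale that understates the change of low genes. Relative to the median of all tested genes, 1443 genes were called higher and 771 lower, against 995 and 1734 without recentring.

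Rhob was read first as a check of the labels. In WT libraries Rhob was at 170.52, 302.77, 364.92, 333.44 and 388.71 TPM, and in the libraries labelled RhoB-/- at 0.09, 0.10, 0.35, 0.57 and 110.87 TPM. The library labelled RhoB-/- replicate 5 thus held Rhob RNA at 110.87 TPM, which goes against its label, and for each gene called in the text it is said where the call was lost without that library. Mitochondrial transcripts made up 17.5% to 26.5% of TPM in WT and 10.3% to 22.4% in RhoB-/- libraries, and between 20261 and 21344 genes were above 0 per library. The TPM table holds no read depth.

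**Figure D1:**
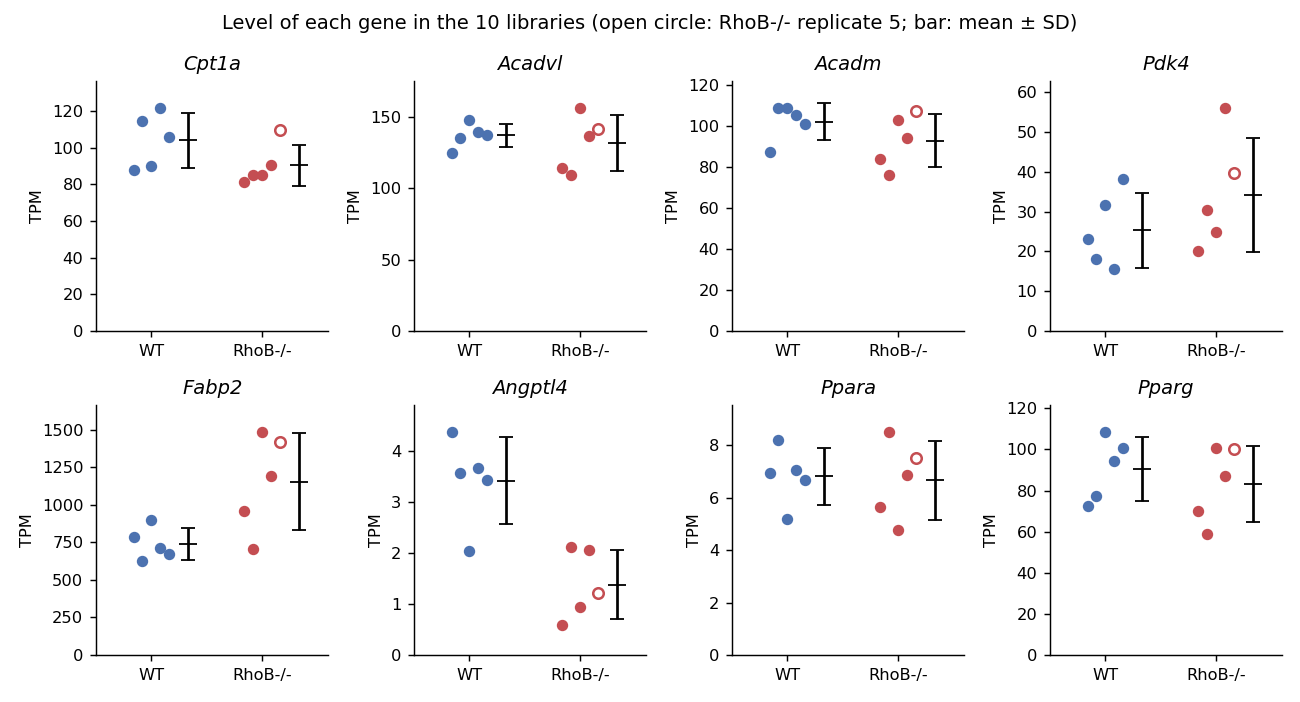
TPM of each of the 8 genes (vertical axis, from 0) in 5 WT and 5 RhoB-/- libraries, with 1 point per library, the mean ± SD beside the points and the library labelled RhoB-/- replicate 5 as an open circle. Angptl4 was mostly lower and Fabp2 mostly higher in RhoB-/- libraries, and the groups shared part of their range in every panel.

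Angptl4, a secreted inhibitor of lipoprotein lipase that is induced by fatty acids, showed the largest difference of the 8 genes. The gene lies on chromosome 17 (33773750 to 33781830, minus strand, GRCm38). WT libraries gave 4.38, 3.56, 2.04, 3.66 and 3.42 TPM, and RhoB-/- libraries gave 0.58, 2.12, 0.94, 2.05 and 1.21 TPM. WT replicate 3, the lowest of its group, lay just under RhoB-/- replicates 2 and 4, and the other WT libraries lay above all RhoB-/- libraries. The mean fell from 3.41 ± 0.852 (SD, n = 5) to 1.38 ± 0.682 TPM (SD, n = 5), with WT 2.47-fold higher. The log2 fold change was -0.91 (SE 0.22, 95% interval -1.40 to -0.43, limma adjusted p = 0.0145). With any 1 library left out the log2 fold change stayed between -1.04 and -0.78 and the adjusted p between 0.00927 and 0.0389, and it was -0.90 (adjusted p = 0.0340) without the library labelled RhoB-/- replicate 5. Angptl4 was a low gene here, below 85.9% of the tested genes in mean level.

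The enzyme that Angptl4 inhibits was lower as well. Lpl, lipoprotein lipase, was at 14.50, 14.95, 12.13, 17.56 and 12.62 TPM in WT and at 4.37, 10.31, 4.80, 12.54 and 10.17 TPM in RhoB-/- IECs (log2 fold change -0.79, SE 0.25, limma adjusted p = 0.0416). Only RhoB-/- replicate 4 reached into the WT range. The RhoB-/- replicates 1 and 3 were the lowest for both Angptl4 and Lpl. Of the 116 pathway genes compared, Lpl had the profile over the 10 libraries that lay nearest to that of Angptl4. The root mean square difference was 0.262 on the log2 scale. Each profile was centred on its WT mean, so this measure holds the difference between genotypes given above. It is therefore not a separate sign that the genes vary together. Lmf1, which helps lipoprotein lipase to mature, fell from 16.4 ± 2.15 to 11.4 ± 1.30 TPM (SD, n = 5 each, log2 fold change -0.49, limma adjusted p = 0.0112) and its groups did not overlap. Of the 12 genes listed for lipoprotein lipase and the angiopoietin-like factors 6 passed the filter, of which these 3 were lower, beside 13.5% of all tested genes, none was higher, and the median was -0.47. Gpihbp1, which carries lipoprotein lipase on capillary walls, was listed at 0 in all libraries. The Lpl call was lost in 7 of 10 fits that left out 1 library (adjusted p up to 0.101), among them each of those without a WT library, and also on quantile normalized values (-0.68, adjusted p = 0.0760) and relative to the median of all tested genes (-0.66, adjusted p = 0.0880). Adipocytes also make Lpl and Angptl4. The summed level of 10 adipocyte markers was 29.2 to 56.6 TPM in RhoB-/- and 15.7 to 24.2 TPM in WT libraries, without overlap (two-sided exact permutation test, adjusted p = 0.00952). Most of it was Cidec, at 23.6 to 48.5 and 9.15 to 18.8 TPM. Of the 2 markers that passed the filter, Cidec was called higher (log2 fold change 1.06) and the other was at -0.12 without a call. Of the 10 markers 8 had a mean below 1 TPM, among them Fabp4, at 0.022 TPM in RhoB-/- and 0.138 TPM in WT libraries. Adipoq and Lep were listed at 0 in every library. The sum thus mostly followed Cidec. The part of that list in the Lpl and Angptl4 differences was not tested.

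Fabp2, the intestinal fatty acid binding protein of absorptive enterocytes, was the most abundant of the 8 genes and the one that was called higher. It lies on chromosome 3 (122895072 to 122899506, plus strand, GRCm38). WT libraries were at 786.12, 625.18, 901.37, 715.10 and 670.29 TPM, and RhoB-/- libraries at 961.41, 709.11, 1488.87, 1194.84 and 1419.20 TPM. RhoB-/- replicate 2 lay among the WT libraries, and the other 4 RhoB-/- libraries lay above all of them. The WT mean was 740 ± 108 TPM and the RhoB-/- mean 1155 ± 324 TPM (SD, n = 5 each), a ratio of 1.56. The log2 fold change was 0.60 (SE 0.20, 95% interval 0.17 to 1.04, limma adjusted p = 0.0490), close to the threshold. The call was lost in 8 of the 10 fits that left out 1 library, and was kept without WT replicate 3 and without RhoB-/- replicate 2. The log2 fold change was 0.52 (adjusted p = 0.112) without the library labelled RhoB-/- replicate 5.

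Other genes of the absorptive epithelium moved in the same comparison. The summed level of 14 small intestinal genes was 80.5 to 143 TPM in WT and 148 to 235 TPM in RhoB-/- libraries (two-sided exact permutation test, p = 0.00794, the smallest 5 against 5 libraries allow, adjusted over 6 marker lists p = 0.00952), although 9 of the 14 had a mean below 1 TPM. The small intestinal markers Lct and Apoa4 were at or near 0, at no more than 0.07 and 0.22 TPM in any library. Of the 5 that passed the filter 2 were called higher, a share of 40% beside 7.73% of all tested genes, and 3 were not called. Those 2 were Alpi and Rbp2, a brush border phosphatase and a retinol binding protein (log2 fold changes 0.91 and 0.86, limma adjusted p = 0.0109 and 0.0440). The Rbp2 call was lost without the library labelled RhoB-/- replicate 5 (0.72, adjusted p = 0.103) and in 6 other fits that left out 1 library. The summed level of 14 epithelial and colonocyte markers was 23750 to 30925 TPM in WT and 26182 to 44899 TPM in RhoB-/- libraries, and missed the threshold (exact permutation p = 0.0714). Gene by gene, however, 5 of these 14 markers were called higher (Krt20, Vil1, Cdx2, Car4 and Aqp8) and none lower, a share of 35.7% beside 7.73% of all tested genes, and 13 of the 14 had a positive log2 fold change. The Cdx2 call was lost in 8 of 10 fits that left out 1 library (limma adjusted p up to 0.104). Among these was the fit without the library labelled RhoB-/- replicate 5 (0.38, adjusted p = 0.0987). The other 4 calls were kept in all 10. The part of these shifts in the Fabp2 difference was not tested.

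Cpt1a, Acadvl and Acadm, enzymes of entry into mitochondria and of oxidation there, gave no call. Cpt1a (chromosome 19, 3322334 to 3385733, plus strand), which makes acylcarnitines at the outer mitochondrial membrane, was at 87.58, 114.70, 89.94, 121.64 and 105.54 TPM in WT and at 81.50, 85.19, 85.19, 90.33 and 109.69 TPM in RhoB-/- IECs. RhoB-/- replicates 1, 2 and 3 lay below all WT libraries, while replicate 5 lay above 3 of the 5. Its log2 fold change was -0.19 (SE 0.12, 95% interval -0.47 to 0.076, limma adjusted p = 0.275). Acadvl (chromosome 11, 70010183 to 70015411, minus strand), which opens the shortening of very long chains, spanned 124.88 to 147.55 TPM in WT and 109.38 to 156.25 TPM in RhoB-/- IECs, so that the WT libraries lay inside the range of the RhoB-/- libraries. Its log2 fold change was -0.069 (95% interval -0.32 to 0.18, adjusted p = 0.694) and turned to 0.058 when taken relative to the median fold change of all tested genes. Acadm (chromosome 3, 153922357 to 153944632, minus strand), which acts on medium chains, was at 87.37, 108.72, 108.95, 105.22 and 101.08 TPM in WT and at 84.06, 76.14, 102.86, 94.26 and 107.44 TPM in RhoB-/- IECs. The groups overlapped, with a log2 fold change of -0.14 (95% interval -0.40 to 0.11, adjusted p = 0.401). The intervals of Cpt1a, Acadvl and Acadm reached no further than -0.47 below and 0.18 above 0.

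Several of the lowest and highest values fell in the libraries with the highest and lowest mitochondrial shares. WT replicate 1, with the highest mitochondrial share (26.5%), was the lowest WT library for Cpt1a, Acadvl, Acadm and Pparg. RhoB-/- replicate 2, the highest of its group (22.4%), was the lowest there for Acadvl, Acadm, Pparg and Fabp2, and RhoB-/- replicate 3, at 10.3%, was the highest for Acadvl, Pparg and Fabp2. With mitochondrial transcripts taken out and TPM rescaled, the coefficient of variation of Acadvl went from 5.98% to 3.92% in WT and from 14.9% to 9.29% in RhoB-/- libraries. It also fell in both genotypes for Cpt1a, Acadm and Pparg, but it rose for Angptl4 in both (from 25.0% to 28.1% and from 49.4% to 53.1%), for Fabp2 in WT (from 14.6% to 16.2%) and for Ppara in RhoB-/- libraries (from 22.5% to 26.2%). On that scale Acadm averaged 129.9 ± 6.33 TPM in WT and 112 ± 9.54 TPM in RhoB-/- IECs (SD, n = 5 each) and was called lower, with a log2 fold change of -0.22 (limma adjusted p = 0.0438). Acadm was also called lower after quantile normalization (-0.20, adjusted p = 0.0126). The Acadm result therefore differed between ways of scaling. The median of all tested genes was itself -0.20 on the rescaled values and -0.051 after quantile normalization, against -0.13 on the deposited scale.

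Pdk4 (chromosome 6, 5483351 to 5496309, minus strand), the kinase that shuts pyruvate out of the mitochondrial pathway when fatty acids are burned, had the widest spread among WT libraries of the 8 genes. It was at 23.03, 18.17, 31.57, 15.71 and 38.10 TPM in WT and at 20.06, 30.36, 24.91, 56.02 and 39.56 TPM in RhoB-/- IECs. The libraries of both groups were interleaved, and RhoB-/- replicates 4 and 5 were above all WT libraries. The coefficient of variation was 37.0% in WT and 41.5% in RhoB-/- IECs. The log2 fold change was 0.40 (SE 0.29, 95% interval -0.22 to 1.03, limma adjusted p = 0.333), an interval that holds 0 as well as 1. Of the 14 genes of pyruvate dehydrogenase and its kinases and phosphatases, none was higher and Pdp2 and Pdha1 were lower. That share was 14.3%, beside 13.5% of all tested genes. The list median was -0.24, beside -0.13 over all tested genes. Pdp2, a phosphatase that turns the complex on, fell from 6.72 ± 2.36 to 3.54 ± 0.652 TPM (log2 fold change -0.73, adjusted p = 0.0195). Pdha1, the subunit that Pdk4 phosphorylates, was at 125 ± 11.3 and 100.6 ± 7.49 TPM with no overlap (-0.31, adjusted p = 0.0441), a call lost in 8 of 10 fits that left out 1 library and kept without WT replicate 3 or RhoB-/- replicate 3. Relative to the median of all tested genes Pdha1 was at -0.18 (adjusted p = 0.230) and was not called. The Pdp2 call was lost without WT replicate 4 (adjusted p = 0.0516).

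**Figure D2:**
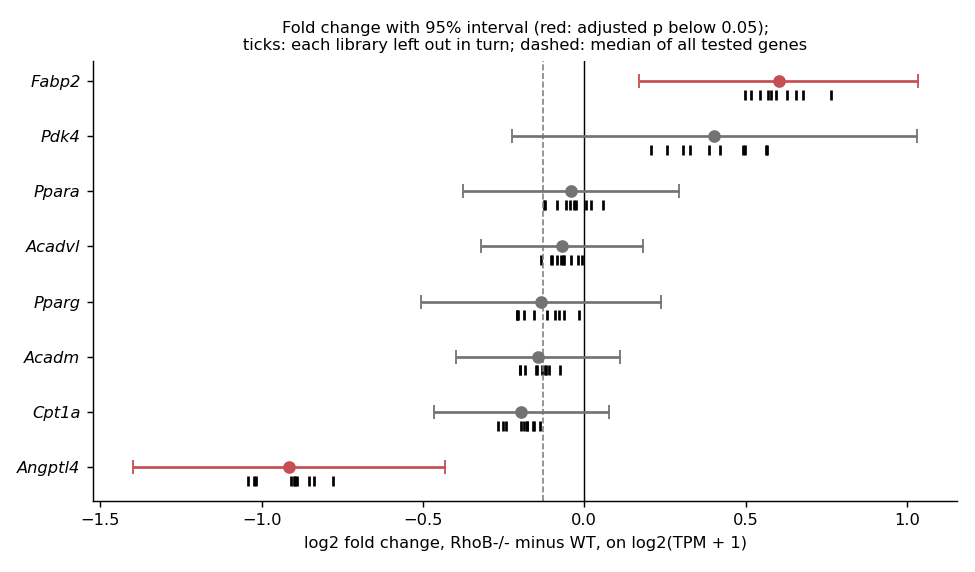
Log2 fold change (RhoB-/- minus WT, on log2(TPM + 1), horizontal axis) of the 8 genes with its 95% interval, in red where the adjusted p was below 0.05, and ticks below for each fit with 1 library left out. The dashed line marks the median of all tested genes at -0.13. The intervals of Angptl4 (-1.40 to -0.43) and Fabp2 (0.17 to 1.04) lie clear of 0 and the other 6 include it.

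The receptors were at unequal levels and neither passed the test. Pparg (chromosome 6, 115360951 to 115490399, plus strand), the receptor best known from fat cells and also abundant in colonic epithelium, was at 72.26, 77.16, 108.72, 94.16 and 100.60 TPM in WT and at 70.14, 58.74, 100.51, 86.89 and 100.23 TPM in RhoB-/- IECs (log2 fold change -0.13, 95% interval -0.50 to 0.24, limma adjusted p = 0.60). Ppara (chromosome 15, 85734983 to 85802819, plus strand), the receptor that governs the fasting response of the liver, was at 6.96, 8.21, 5.19, 7.05 and 6.69 TPM in WT and at 5.63, 8.53, 4.76, 6.88 and 7.52 TPM in RhoB-/- IECs. Its log2 fold change was -0.040 (95% interval -0.37 to 0.29, adjusted p = 0.872), and it turned to 0.086 relative to that median and to 0.12 on quantile normalized values. In TPM, which is per transcript length, Pparg exceeded Ppara by 9.40 to 20.9 times in WT libraries (median 13.4) and by 6.89 to 21.1 times in RhoB-/- libraries (median 12.6). Ppard, the third receptor of the family, was at 89.5 ± 12.6 and 105.7 ± 17.5 TPM (SD, n = 5 each, adjusted p = 0.226), near the level of Pparg.

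By mean TPM the order was Fabp2, Acadvl, Acadm and Cpt1a, Pparg, Pdk4, Ppara and Angptl4 in WT IECs. Cpt1a and Acadm, at 104 ± 14.96 and 102 ± 8.92 TPM in WT (SD, n = 5 each), did not differ beyond their spread, and Pparg at 90.6 ± 15.5 TPM overlapped both. The steps from Fabp2 to Acadvl, from Acadvl to Cpt1a, from Pparg to Pdk4, from Pdk4 to Ppara and from Ppara to Angptl4 exceeded the spread of the WT libraries. Fabp2 lay above 99.1% and Angptl4 above 14.1% of tested genes. The profiles nearest to the remaining genes, by the same root mean square difference, were those of Ppargc1b for Cpt1a (0.0886), Acot8 for Acadm (0.0650), Dld for Acadvl (0.0445), Vnn1 for Pdk4 (0.367), Ppargc1a for Ppara (0.175), Pdhb for Pparg (0.140) and Etfa for Fabp2 (0.273). None of these 7 genes passed the test between genotypes, though Ppargc1b was called lower without mitochondrial genes (-0.32, limma adjusted p = 0.0137).

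The pathway lists around the 8 genes held 109 other tested genes, of which 6 were higher, 16 were lower and 87 did not pass the test. These shares, 5.50% higher and 14.7% lower, were near the 7.73% and 13.5% of all tested genes, and the median log2 fold change, -0.12, was near the -0.13 of all tested genes. WT and RhoB-/- values were apart for 15 of the 109, beside 14.5% of all tested genes. Relative to the median of all tested genes 10 were higher and 8 lower, beside 1443 and 771 of all 12870 tested genes. Without the library labelled RhoB-/- replicate 5 the counts were 4 higher and 11 lower, beside 719 and 1116 of 12850. Without WT replicate 4 the lower genes numbered 8, beside 853 of 12803.

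Ketogenesis genes were lower or not called. Of 10 listed genes 8 passed the filter, 2 were lower and none was higher, beside 13.5% lower and 7.73% higher among all tested genes, and the median log2 fold change was -0.23, beside -0.13. Acat1, which joins or splits acetoacetyl-CoA, fell from 109 ± 10.6 to 80.1 ± 13.97 TPM (SD, n = 5 each, -0.46, adjusted p = 0.0256), and Sirt3, a mitochondrial deacetylase, from 20.2 ± 2.78 to 14.8 ± 2.57 TPM (-0.43, adjusted p = 0.0390). The Acat1 call was lost in 4 of the 10 fits that left out 1 library (WT replicates 2 and 4, RhoB-/- replicates 1 and 5), and the Sirt3 call in 8, all but those without WT replicate 1 or RhoB-/- replicate 3. Relative to the median of all tested genes neither was called (Acat1 -0.33, adjusted p = 0.0951, and Sirt3 -0.31, adjusted p = 0.139), so that both calls depend on the scaling. Bdh1, which reduces acetoacetate, and Oxct1, which spends ketone bodies, had log2 fold changes of -0.11 and 0.043 and did not pass the test. The transporters Slc16a1 and Slc16a6 were at -0.25 and -0.21 and did not pass either. After quantile normalization Slc16a1 was called lower (-0.32, limma adjusted p = 0.0279).

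In the carnitine shuttle 1 of 9 tested genes, Slc25a20, was higher and none was lower, beside 7.73% higher and 13.5% lower among all tested genes. The median was 0.034, beside -0.13. Slc25a20, the translocase that carries acylcarnitines across the inner mitochondrial membrane, was at 73.36, 88.49, 113.90, 104.82 and 108.94 TPM in WT and at 175.91, 168.39, 192.76, 191.16 and 270.54 TPM in RhoB-/- IECs. Every RhoB-/- library was above every WT library. The log2 fold change was 1.02 (SE 0.16, 95% interval 0.68 to 1.36, limma adjusted p = 0.00115), and 0.90 (adjusted p = 0.00198) without the library labelled RhoB-/- replicate 5, which was the highest. Cpt2, which acts next after this translocase, was at 61.2 ± 4.21 and 66.1 ± 10.7 TPM (SD, n = 5 each, 0.097, adjusted p = 0.586). The carnitine transporter Slc22a5 was at 0.24, the acetyl transferase Crat at -0.0074, the peroxisomal transferase Crot at 0.081, Mlycd, which removes the Cpt1a inhibitor malonyl-CoA, at -0.15, and Acaca and Acacb, which make it, at -0.29 and 0.034 on the log2 scale of the fold change.

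Among the 21 genes of mitochondrial beta-oxidation none was higher and 2 were lower, Acad10 and Acaa2. That share, 9.52%, was below the 13.5% of all tested genes, and the median was -0.17, beside -0.13. Acad10, an acyl-CoA dehydrogenase family member, fell from 6.24 ± 0.653 to 4.27 ± 0.444 TPM with no overlap (SD, n = 5 each, log2 fold change -0.46, limma adjusted p = 0.0123). Acaa2, the last enzyme of a round of oxidation, fell from 123 ± 15.8 to 92.5 ± 13.6 TPM (-0.41, adjusted p = 0.0463), a call that among fits with 1 library left out was kept only without WT replicate 1 or RhoB-/- replicate 3. Both calls were lost relative to the median of all tested genes, with Acad10 at -0.33 (adjusted p = 0.0532) and Acaa2 at -0.28 (adjusted p = 0.168).

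Known target genes of the PPAR receptors moved in both directions. Of 24 tested targets 6 were higher, 5 were lower and 13 did not pass the test, with a median of -0.12, beside 7.73% higher and 13.5% lower among all tested genes, and 5 of the 24 were among the 8 genes. Besides Fabp2 and Slc25a20, the higher targets included Creb3l3, a lipid-regulating transcription factor of liver and gut, at 4.88 ± 2.52 and 11.7 ± 4.55 TPM (SD, n = 5 each, log2 fold change 1.15, limma adjusted p = 0.0203), Cidec, a lipid droplet protein, at 14.5 ± 4.42 and 31.3 ± 9.99 TPM (1.06, adjusted p = 0.00819), and Fabp1. Fabp1, the liver type binding protein, was low, at 1.41, 0, 0, 0.38 and 0.19 TPM in WT and at 2.44, 1.41, 2.61, 1.82 and 1.62 TPM in RhoB-/- IECs (1.16, adjusted p = 0.00982), so that WT replicate 1 equalled the lowest RhoB-/- library. The Creb3l3 call was lost without WT replicate 4 (adjusted p = 0.0537) and without the library labelled RhoB-/- replicate 5 (adjusted p = 0.0501). Besides Angptl4 and Acaa2, the lower targets were Acot1, Acot2 and Hilpda. Acot1, a thioesterase that splits acyl-CoA, fell from 9.41 ± 1.90 to 3.27 ± 1.11 TPM with no overlap (-1.31, adjusted p = 6.08e-04), and Acot2 fell from 6.22 ± 1.98 to 2.88 ± 0.444 TPM (-0.86, adjusted p = 0.00829). Acot1 and Acot2 are near-identical neighbours on chromosome 12, so reads can be split between them and their separate values are uncertain. Hilpda, an inhibitor of lipolysis in lipid droplets, fell from 9.29 ± 0.793 to 6.57 ± 1.05 TPM (-0.45, adjusted p = 0.0195), a call lost without WT replicate 4 (adjusted p = 0.0569) and relative to the median of all tested genes (-0.33, adjusted p = 0.0776).

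The start regions of Fabp2 and Slc25a20, which rose, and of Cpt1a, a target that did not pass the test, are shown to let the known PPAR element be looked for. That element is a direct repeat, 2 copies of AGGTCA in the same orientation with any 1 base between them, and was searched on both strands. The sequences are from RefSeq (GRCm38.p6), run 5′ to 3′ along the strand of the gene, and have in capitals the stretch closest to the element. Of the 8 genes 7 had an entry.
Fabp2 (chr3:122894822-122895121, plus strand): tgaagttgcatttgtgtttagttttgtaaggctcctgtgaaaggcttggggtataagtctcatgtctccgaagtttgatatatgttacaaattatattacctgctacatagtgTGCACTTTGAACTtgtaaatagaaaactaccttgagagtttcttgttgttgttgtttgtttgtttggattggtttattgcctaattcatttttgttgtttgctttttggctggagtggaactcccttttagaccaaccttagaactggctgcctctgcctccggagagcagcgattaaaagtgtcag
Slc25a20 (chr9:108661886-108662185, plus strand): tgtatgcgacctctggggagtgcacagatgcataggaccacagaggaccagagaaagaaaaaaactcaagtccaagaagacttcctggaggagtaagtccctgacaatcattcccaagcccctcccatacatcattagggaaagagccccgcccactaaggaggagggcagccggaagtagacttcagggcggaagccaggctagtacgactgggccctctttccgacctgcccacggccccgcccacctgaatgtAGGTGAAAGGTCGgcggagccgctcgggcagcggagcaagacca
Cpt1a (chr19:3323051-3323350, plus strand): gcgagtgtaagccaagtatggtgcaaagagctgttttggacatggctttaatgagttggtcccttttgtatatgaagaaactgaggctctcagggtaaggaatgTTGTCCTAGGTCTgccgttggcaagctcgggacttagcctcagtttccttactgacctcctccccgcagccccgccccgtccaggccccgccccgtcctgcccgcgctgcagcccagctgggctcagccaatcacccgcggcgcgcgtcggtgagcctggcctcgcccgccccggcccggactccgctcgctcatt
No start region of the 7 genes held the element without mismatch. The closest stretch of Fabp2 starts at position -137 from the transcription start, lies on the minus strand and has 3 mismatches of 12 fixed letters, and 24.6% of all 32851 start regions of the same length had as few or fewer. That of Slc25a20 starts at position 6, lies on the plus strand and has 2 mismatches, which 3.86% of start regions matched or bettered, and that of Cpt1a has 4 mismatches, which 79.8% did. Acadm also had 3 mismatches, and Pdk4, Pparg, Acadvl and Ppara had 4. Of the genes called lower that were searched, Lpin1 had 3 mismatches, as many as Fabp2, and Acot1 had 4. A match in letters describes the sequence and is not a measured binding site.

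Lpin1, which acts as a phosphatase and as a partner of the PPAR coactivators, was the most reduced of 17 tested receptors, partners and coregulators. It was at 2.21, 5.17, 3.47, 6.18 and 3.68 TPM in WT and at 1.51, 0.92, 1.80, 0.87 and 1.51 TPM in RhoB-/- IECs, with no overlap (log2 fold change -1.11, SE 0.22, limma adjusted p = 0.00518). Esrra, a receptor that works with the same coactivators on mitochondrial genes, rose from 90.8 ± 9.81 to 115 ± 8.21 TPM (SD, n = 5 each, 0.34, adjusted p = 0.0349), a call lost in 6 of 10 fits that left out 1 library and kept without WT replicate 2 or RhoB-/- replicates 1, 2 or 3. Among 19 tested genes of fatty acid uptake, binding and activation 2 were higher, Fabp1 and Fabp2, and 4 were lower. These shares, 10.5% and 21.1%, stood beside 7.73% and 13.5% of all tested genes. The list median was -0.089, beside -0.13. Acsm3, a synthetase for medium chains, fell from 81.7 ± 13.8 to 38.7 ± 10.02 TPM (-1.08, adjusted p = 0.00178), and Acss2, which activates acetate, from 57.0 ± 12.4 to 31.5 ± 4.99 TPM (-0.83, adjusted p = 0.00455). Slc27a1 and Acsl1, a fatty acid transporter and a long-chain synthetase, were at -0.73 and -0.54 (adjusted p = 0.00498 and 0.0228). The Acsl1 call was lost without WT replicate 4, RhoB-/- replicate 4 or RhoB-/- replicate 5 (adjusted p = 0.0503 to 0.0632) and relative to the median of all tested genes (-0.42, adjusted p = 0.0711). None of these 4 genes overlapped between genotypes.

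**Figure D3:**
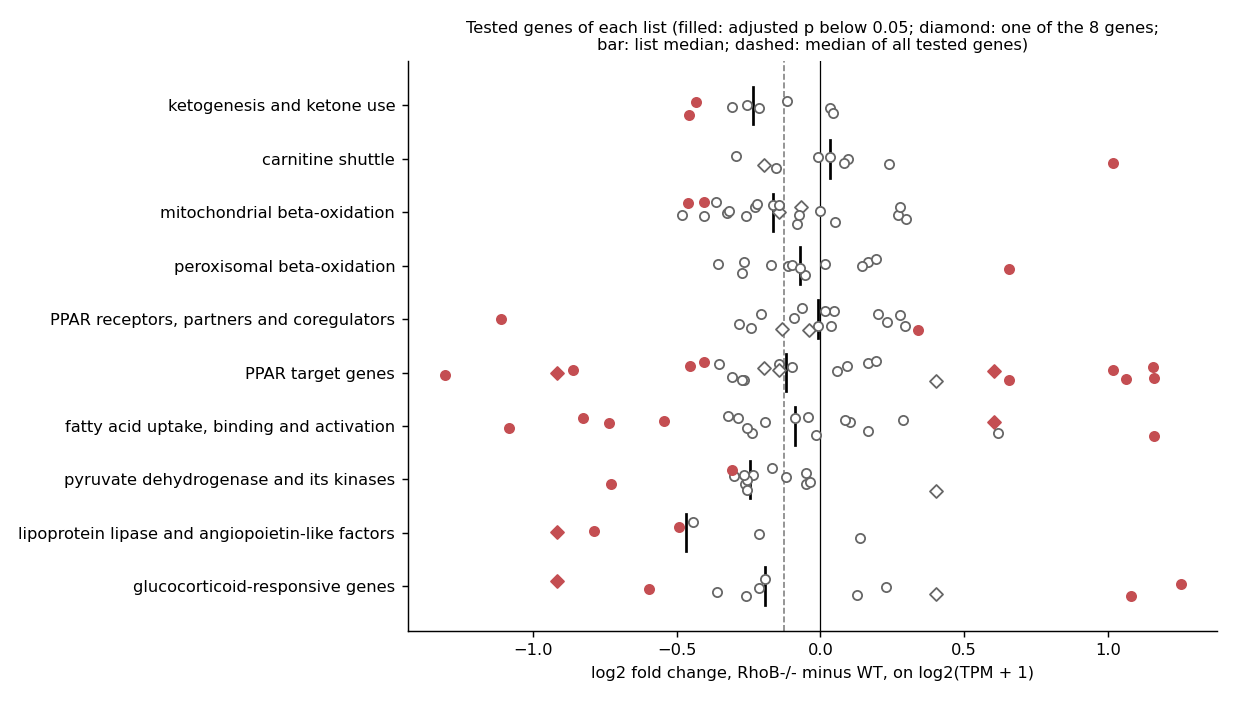
Log2 fold change (RhoB-/- minus WT, on log2(TPM + 1), horizontal axis) of every tested gene of the 10 lists, 1 point per gene and list, filled where the adjusted p was below 0.05, with diamonds for the 8 genes, a bar at each list median and a dashed line at the median of all tested genes. PPAR targets spread to both sides, from -1.31 to 1.16, while the median of beta-oxidation genes was -0.17.

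Angptl4 and Pdk4 are also known to respond to glucocorticoids. Of the 11 tested genes of that list 2 were higher, 2 were lower and 7 did not pass the test. These shares, 18.2% each, stood beside 7.73% higher and 13.5% lower among all tested genes. The list median was -0.19, beside -0.13. Fkbp5, a chaperone of the receptor, was at 46.1 to 57.6 TPM in WT and 92.3 to 129.7 TPM in RhoB-/- libraries (log2 fold change 1.08, SE 0.12, limma adjusted p = 8.44e-05), and Sgk1, a kinase, at 73.0 to 173 and 222 to 365 TPM (1.25, adjusted p = 0.00404). Neither gene overlapped between genotypes. Angptl4 and Hsd11b2, which inactivates glucocorticoids (-0.60, adjusted p = 0.0280), were lower, and the Hsd11b2 call was lost in 6 of 10 fits that left out 1 library, among them that without RhoB-/- replicate 5 (-0.59, adjusted p = 0.0590), and relative to the median of all tested genes (-0.47, adjusted p = 0.0774). Nr3c1, the receptor itself, was at 19.5 ± 2.08 and 21.6 ± 3.75 TPM (SD, n = 5 each, adjusted p = 0.474).

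**Figure D4:**
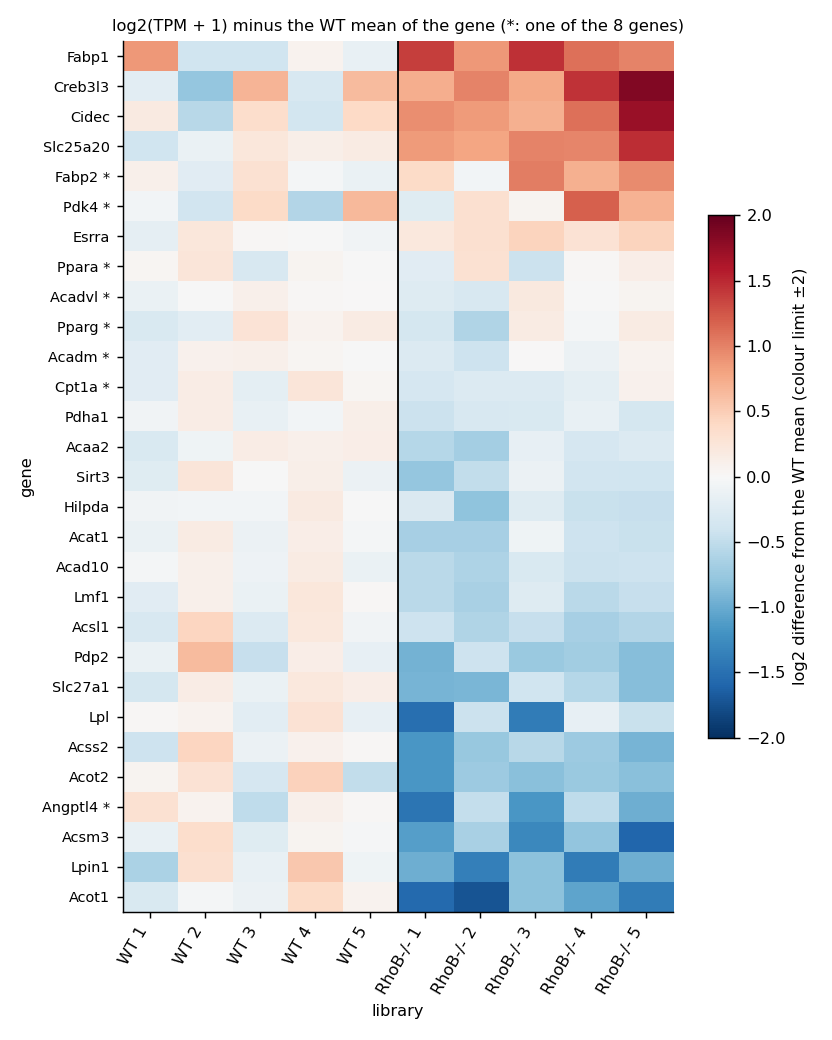
Difference of log2(TPM + 1) from the WT mean of each gene (colour, limits ±2) for the 8 genes (marked *) and 21 other pathway genes that were called, by library. The rows from Fabp1 to Slc25a20 are red in all 5 RhoB-/- libraries, Angptl4 is blue in all 5, and the rows of Ppara, Acadvl, Pparg, Acadm and Cpt1a are pale.

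Markers of other cells differed between the genotypes. The summed level of 14 immune markers was 6.37 to 14.2 TPM in WT and 20.2 to 41.8 TPM in RhoB-/- libraries. That of 12 stromal, muscle and endothelial markers was 5.31 to 7.37 and 7.91 to 38.5 TPM, highest in RhoB-/- replicates 4 and 5 (17.9 and 38.5 TPM). Of these markers, 8 of the 14 and 9 of the 12 had a mean below 1 TPM. Of those that passed the filter, 4 of 6 immune and 1 of 3 stromal markers were called higher, beside 7.73% of all tested genes. Of 9 hindgut transcription factor genes, mostly of the Hox clusters, the sum was 136 to 253 TPM in WT and 68.6 to 91.4 TPM in RhoB-/- libraries, and Hoxb13, a gene of the most distal colon, was at 50.02 to 135 and 13.99 to 35.1 TPM. The adipocyte list summed to 15.7 to 24.2 and 29.2 to 56.6 TPM, of which Cidec, also a PPAR target, made up 9.15 to 18.8 and 23.6 to 48.5 TPM. In each of these 4 lists the groups did not overlap (two-sided exact permutation p = 0.00794, adjusted p = 0.00952). Among the adipocyte markers only Cidec was called, and the other that passed the filter was at -0.12. That sum is therefore not read as a difference in adipocytes. The library labelled RhoB-/- replicate 5 had the highest immune, stromal, adipocyte, small intestinal and epithelial sums of all libraries and the lowest hindgut sum. Epcam, which defines the epithelium, was between 969 and 1639 TPM in all libraries. The part of these markers in the results above was not tested.

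**Figure D5:**
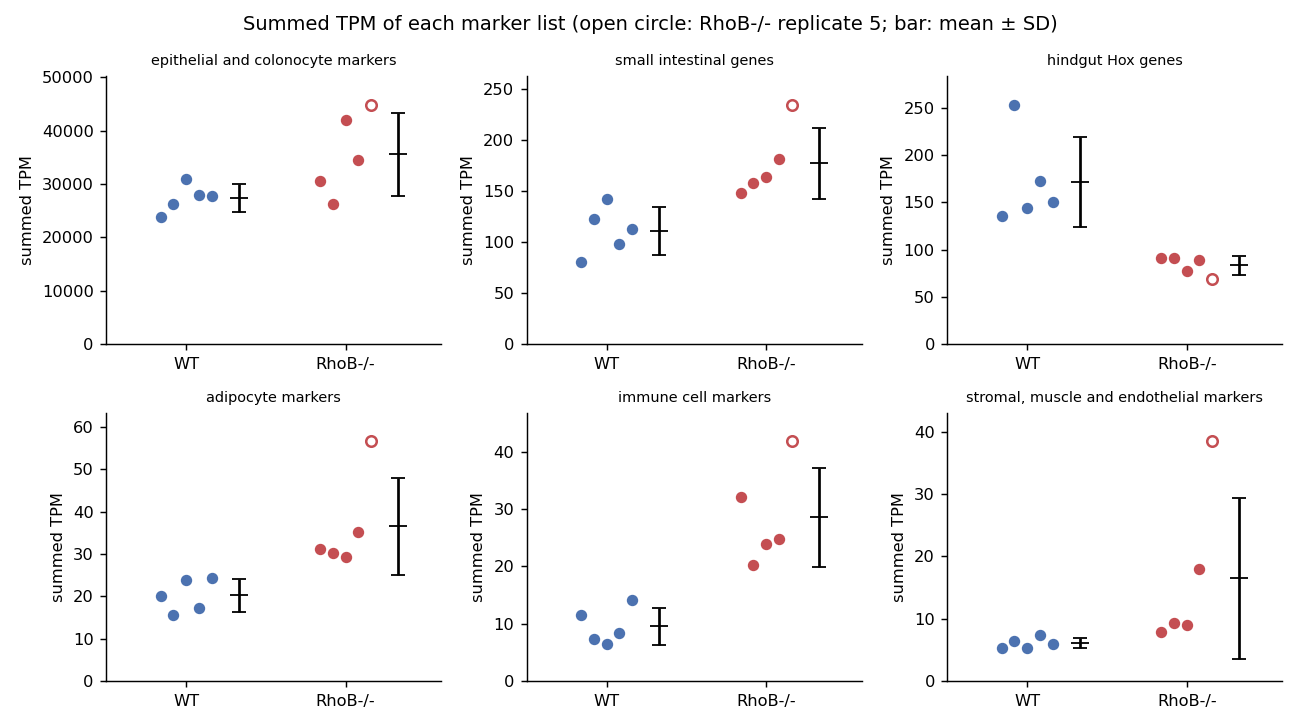
Summed TPM of 6 marker lists (vertical axes, from 0) in 5 WT and 5 RhoB-/- libraries, with the mean ± SD beside the points and the library labelled RhoB-/- replicate 5 as an open circle. The groups overlap for the epithelial and colonocyte list (23750 to 30925 and 26182 to 44899 TPM) and do not overlap in the other 5.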

How the data were processed

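The data were 10 RNA libraries of colonic IECs, 5 WT and 5 RhoB-/-, taken as 1 mouse each and grouped by the labels. The authors used SeqPrep and Sickle for trimming, HISAT2 for alignment, StringTie for assembly and RSEM for abundance, and the submitters' processing notes also name edgeR and the build GRCm38.p6 (tool versions are not given in the sources used here). The deposited values are TPM with 2 decimals, used as given. TPM keeps no depth, so the counting error is unknown, and a gene that takes much of a library lowers the others in it. The 12870 genes whose mean TPM reached 1 were tested with limma 3.58.1 in R 4.3.3 (lmFit, eBayes with trend) on log2(TPM + 1), with Benjamini-Hochberg adjustment over all of them and calls at an adjusted p below 0.05. The fit was tested on simulated data. Marker sums were compared with two-sided exact permutation tests over libraries. P-values measure the spread between mice of these colonies. Positions are from the GENCODE annotation of GRCm38.

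The 8 genes and all lists were chosen with earlier results of these data known. Of 220 listed symbols 219 were in the table. The genes named were the 8 genes, Rhob, the tested genes of ketogenesis and the carnitine shuttle, the 3 largest called changes of each other list, and for each of the 8 the pathway gene with the nearest profile. Other genes named (Gpihbp1, Ppard, Acot2, Hilpda, Cidec, Acsl1, Slc27a1, Hsd11b2, Nr3c1 and the cell markers) were chosen after their values were seen. Some genes that meet the rule are not reported here. The alternatives were a pseudocount of 0.1, no filter or a filter at 0.1 TPM, a replicate block, quantile normalization, recentring on the median fold change of all tested genes, removal of mitochondrial genes, no intensity trend, a call by unadjusted p and fold change, and each library left out in turn.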

Additional observations from a re-analysis of the deposited data

Results flagged for a closer look

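In 102 groups of 5 libraries (45 named genes and 6 marker sums in 2 genotypes) 1 library stood apart from the others by Dixon's criterion in 5, and chance alone gives about 1 in 20 (5.1). In 4 of the 5 it was the library labelled RhoB-/- replicate 5, with Rhob at 110.87 TPM where the others had at most 0.57 TPM, Slc25a20 at 270.54 TPM, Oxct1 at 68.86 TPM and an adipocyte marker sum of 56.6 TPM, of which Cidec gave 48.52 TPM. The other was Fabp1 in WT replicate 1, at 1.41 TPM. None of the 8 genes had such a library.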

How the results depend on the processing

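Angptl4 stayed lower past the threshold in all 10 fits that left out 1 library and all 8 other settings, and Cpt1a, Pdk4 and Pparg kept their direction without a call in all of them. Fabp2 kept its direction, with a log2 fold change of 0.50 to 0.77 as libraries were left out, but its call, and with it the count of the 8 genes called higher (0 to 1), was lost with no filter (0.60, adjusted p = 0.119), with a filter at 0.1 TPM (0.60, adjusted p = 0.0682) and without the intensity trend (0.60, adjusted p = 0.0520), each of which left 0 higher. Quantile normalization and removal of mitochondrial genes gave 2 of the 8 lower, since Acadm joined (-0.20 and -0.22). Recentring turned Acadvl to 0.058 and Ppara to 0.086, quantile normalization turned Ppara to 0.12, and Ppara ranged from -0.12 to 0.057 as libraries were left out.

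Of the other pathway genes 10 were higher under quantile normalization and 10 under recentring. The lower ones numbered 25 under quantile normalization, 8 when recentred, 39 without mitochondrial genes, 8 by unadjusted p and fold change, and 8 to 23 as libraries were left out (8 without WT replicate 4). The replicate block gave 10 lower. Over all tested genes the lower calls moved as well, from 1734 to 1975 under quantile normalization, 771 when recentred and 1059 with the block. Without mitochondrial genes they were 3729 of 13287. The higher calls went from 995 to 1587 under quantile normalization and 1443 when recentred. Replicate numbers are shared by both genotypes, but same-numbered libraries were of different mice. Their deviations correlated at -0.0874 to 0.0720 and 1 of 5 matched its own number best, so no pairing was seen over all genes. Whether same-numbered libraries were handled together is not stated in the labels and was not tested. The block changed no call of the 8 genes (Fabp2 adjusted p = 0.0346, Angptl4 0.0239), but those of Acat1 (0.0602), Sirt3 (0.0528), Acad10 (0.0544), Esrra (0.0823), Pdha1 (0.112), Hilpda (0.0524), Acsl1 (0.0580) and the epithelial marker Cdx2 were lost under it. The difference in log2 summed colonocyte markers was 0.27 to 0.46 as libraries were left out and passed the test without RhoB-/- replicate 2.

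Of the other 53 genes, 16 of them chosen after seeing the data, 954 refits were made, of which 818 kept direction and side of the threshold, 104 lost the call, 6 gained it and 26 changed sign. Without mitochondrial genes Ppargc1b (-0.32, limma adjusted p = 0.0137), Acaca (-0.37, 0.0341) and Mlycd (-0.23, 0.0480) gained a call. Quantile normalization gave a call to Slc16a1 (-0.32, adjusted p = 0.0279) and Slc22a5 (0.32, 0.0252). Acaca was also called without WT replicate 3 (-0.39, adjusted p = 0.0248). Sign changes without a call were Crat (0.032 under quantile normalization, 0.12 recentred, -0.064 to 0.041 as libraries were left out), and, by the same range, Oxct1 (-0.074 to 0.16), Crot (-0.046 to 0.17), Acacb (-0.032 to 0.10), Dld (-0.11 to 0.016), Vnn1 (-0.066 to 0.22) and Ppargc1a (-0.047 to 0.17). Recentring gave Bdh1 0.012, Acot8 0.037, Dld 0.076 and Pdhb 0.0066, and removal of mitochondrial genes gave Oxct1 -0.032, Acacb -0.034, Vnn1 -0.0036 and Ppargc1a -0.018. The cause was not tested. Depth is unknown, so for genes near 1 TPM, such as Angptl4 in RhoB-/- libraries, the counting error cannot be given.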
